A study of Homo sapiens with 8 samples.

Results

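The receptor tyrosine kinases EGFR, ERBB2, ERBB3, MET and MST1R and the EGF-type growth factors AREG, EREG, TGFA, HBEGF and BTC were followed in 2D-primed and 3D-primed HepG2 cells, a human cell line derived from a hepatocellular carcinoma. These 10 genes were found by their symbols among the 38032 gene identifiers measured, and 8 of them, all 5 receptors and 3 of the 5 ligands, had 10 or more counts in 2 or more of the 8 libraries and could be tested. HepG2 cells, for which no genetic modification was described, were maintained in 2D. They were then grown for 8 days either on flat polystyrene culture-ware (2D-primed, 4 cultures) or on Alvetex Strata, a porous and inert polystyrene membrane (3D-primed, 4 cultures). Both groups were liberated with trypsin before RNA extraction, and no drug was given. The paper describes seeding the scaffold at high density, with more cells than in 2D for the same plate format. Which format gave the RNA is not stated. The effects of the scaffold and of seeding density cannot be told apart. All libraries came from a single cell line, and what the labels call replicates are not stated to be separate experiments, so p-values measure the spread between these cultures.

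Receptors of the EGFR family sit in the plasma membrane and pair with one another when a ligand binds, which switches on their kinase activity. ERBB2 has no known ligand and acts as a partner, whereas ERBB3 binds neuregulins, has little kinase activity of its own and couples strongly to PI3-kinase. MET is the receptor for hepatocyte growth factor (HGF) and MST1R the receptor for macrophage-stimulating protein, the product of MST1. EGF-type ligands are made as membrane-anchored precursors that proteases cut free, and in the liver EGFR and MET are best known for driving hepatocyte proliferation during regeneration.

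The libraries held 21599630 to 27844077 counts, of which mitochondrial genes took 1.40 to 1.81% in 2D-primed and 2.47 to 2.98% in 3D-primed cells. Hepatocyte markers were abundant, since the 8 genes of that list summed to 68911 to 74967 CPM (reads relative to library size after TMM scaling) in 2D-primed and 96895 to 108821 CPM in 3D-primed libraries. Of these 8, 6 were higher and 2 lower in 3D-primed cells (of all genes tested, 32.4% and 31.6%). The lower ones were APOB, from 12693 to 10690 CPM, and SERPINA1, from 10748 to 9771 CPM (edgeR adjusted p = 0.016 and 0.011). Markers of other cell types were mixed. Under 10 counts in every library were found for 6 of 8 fibroblast or stellate markers (COL1A2, COL3A1, PDGFRA, THY1, DCN and LUM), for the endothelial genes KDR and TEK (2 of 5), the leukocyte genes PTPRC and CD3E (2 of 5) and the cholangiocyte genes KRT7 and CFTR (2 of 5). Summed levels in 2D-primed and 3D-primed libraries ran from 11.0 to 12.3 and from 15.2 to 18.1 CPM for the fibroblast or stellate list, from 5.66 to 7.76 and from 4.16 to 5.70 CPM for the endothelial list, and from 2194 to 2286 and from 2421 to 3027 CPM for the leukocyte list. Single genes held most of some sums and went both ways. LYZ rose from 2168 to 2642 CPM while CD68 fell from 72.7 to 34.4 CPM, PDGFRB rose from 10.7 to 16.4 CPM while COL1A1 fell from 0.969 to 0.0703 CPM, and CDH5 fell from 4.73 to 1.59 CPM while VWF rose from 1.11 to 1.71 CPM (group means, edgeR adjusted p below 0.05 for each). The cholangiocyte list moved with the genes described here, because its summed level was 737 to 828 CPM in 2D-primed and 418 to 446 CPM in 3D-primed libraries and its 3 tested members (KRT19, SOX9 and EPCAM) fell. Its part in the results was not tested.

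Of the 8 genes tested, 6 were lower in 3D-primed cells and none was higher by edgeR's quasi-likelihood test at a Benjamini-Hochberg adjusted p below 0.05 over all genes. EGFR, ERBB2 and MET fell among the receptors, and TGFA, HBEGF and AREG among the ligands. Of all 13943 genes tested, 63.9% were called, 31.6% as lower and 32.4% as higher in 3D-primed cells. With 0 of 8 called higher, the count of members higher at an unadjusted p below 0.05 was also 0, as was the count by DESeq2 and by limma-voom. In the 6 called genes every 3D-primed library lay below every 2D-primed library, as in 29.5% of all genes tested (30.2% lay the other way, 59.8% in all). In these bulk samples, fewer cells of a type and less RNA per cell cannot be told apart. The median log2 fold change of the 8 genes was -0.67, beside 0.01 over all genes tested.

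**Figure D1:**
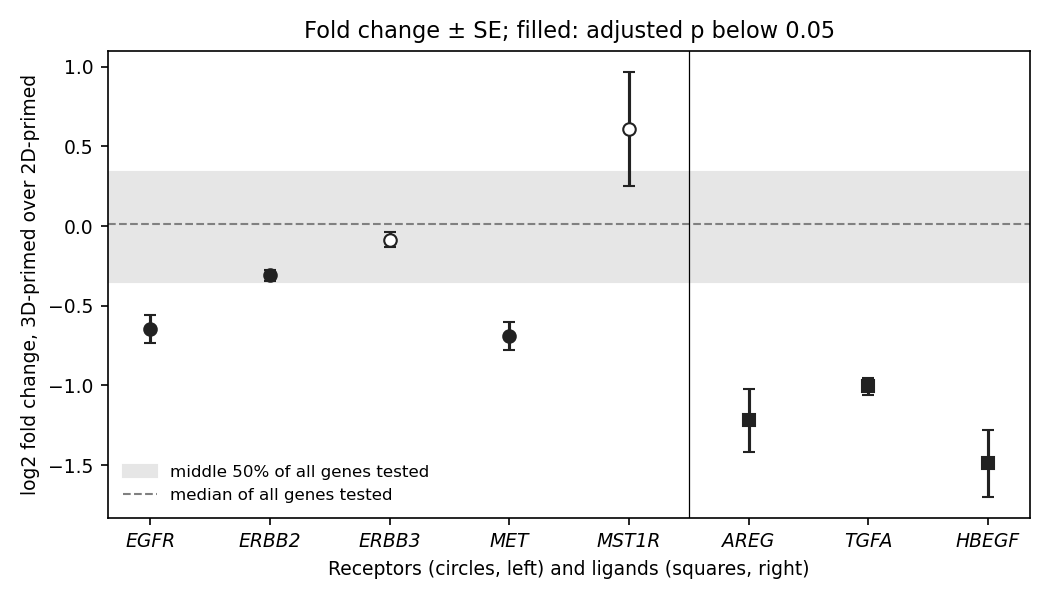
Log2 fold change of each tested gene, 3D-primed over 2D-primed (vertical axis), for receptors (circles) and ligands (squares); bars are standard errors and filled symbols passed an adjusted p of 0.05. The 3 ligands lie at -1.01 or lower, EGFR and MET near -0.65 and -0.69, while ERBB2 at -0.31 and ERBB3 at -0.08 lie inside the grey band that holds the middle 50% of all genes.

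Among the receptors, EGFR and MET fell by similar amounts. EGFR (ENSG00000146648), the receptor for all the ligands listed here, spans 55019017 to 55211628 on chromosome 7 (GRCh38, as are the positions that follow), with 28 exons in the canonical transcript. Its level was 110, 137, 141 and 127 CPM in 2D-primed replicates 1 to 4 and 78.5, 80.0, 94.6 and 76.6 CPM in 3D-primed replicates 1 to 4. The groups did not overlap, although 2D-primed replicate 1 was low and 3D-primed replicate 3 high within their groups. The means of 129 ± 13.7 and 82.4 ± 8.25 CPM (SD, n = 4) gave a log2 ratio (3D-primed over 2D-primed) of -0.65 (standard error, SE, 0.0873, edgeR adjusted p = 9.1e-05), or 1.56-fold more in 2D-primed cells.

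MET (ENSG00000105976, chromosome 7, from 116672196 to 116798377, 21 exons) was counted at 155, 174, 200 and 174 CPM in 2D-primed and at 99.6, 111, 124 and 102 CPM in 3D-primed replicates 1 to 4. As for EGFR, replicate 1 was the lowest 2D-primed library and replicate 3 the highest of each group. The log2 fold change was -0.69 (SE 0.0862, edgeR adjusted p = 5.3e-05), or 1.61-fold more in 2D-primed cells. The ratio of MET to EGFR, each per kb of canonical transcript, was 1.84 to 2.06 in 2D-primed and 1.84 to 2.01 in 3D-primed libraries, and these ranges overlapped.

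ERBB2 (ENSG00000141736, chromosome 17, from 39687914 to 39730426), the partner receptor without a ligand, changed less. It was counted at 220, 236, 229 and 227 CPM in 2D-primed replicates and at 186, 180, 185 and 186 CPM in 3D-primed replicates. The spread within each group was narrow, at 2.77% and 1.49% of the mean, and the 1.24-fold difference passed the test (log2 fold change -0.31, SE 0.0350, edgeR adjusted p = 2.6e-05).

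ERBB3 (ENSG00000065361, chromosome 12, from 56076799 to 56103505), the neuregulin receptor, did not pass the test. Its level was 454, 487, 469 and 464 CPM in 2D-primed and 429, 449, 474 and 417 CPM in 3D-primed replicates, and the groups overlapped because 3D-primed replicate 3 lay above 3 of the 2D-primed libraries. The log2 fold change was -0.08 (SE 0.0467, edgeR adjusted p = 0.14). Without 3D-primed replicate 3 it was -0.13 and passed the threshold (edgeR adjusted p = 0.022), and over all alternatives the adjusted p ran from 0.022 to 0.54.

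MST1R (ENSG00000164078, chromosome 3, from 49887002 to 49903873) was close to the limit of counting. The libraries held 16, 11, 7 and 6 counts in 2D-primed and 19, 12, 18 and 19 counts in 3D-primed replicates, and the groups overlapped. Its log2 fold change of 0.61 had an SE of 0.358 (edgeR adjusted p = 0.16). Without 2D-primed replicate 1 it was 0.97 and passed the threshold (edgeR adjusted p = 0.031), and over the 16 alternatives in which it was tested the adjusted p ran from 0.031 to 0.34. It was not tested where 10 counts in all 8 libraries were required.

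All 3 tested ligands fell at least 2-fold, which 7.01% of all genes tested did. TGFA (ENSG00000163235, chromosome 2, from 70447284 to 70554193), which encodes transforming growth factor alpha, was by far the most abundant ligand. It was counted at 82.0, 81.7, 86.4 and 82.8 CPM in 2D-primed and at 44.2, 38.7, 44.2 and 38.6 CPM in 3D-primed replicates, and the groups, with SDs of 2.17 and 3.23 CPM, lay far apart. The log2 fold change was -1.01 (SE 0.0546, edgeR adjusted p = 1.9e-07), or 2.01-fold more in 2D-primed cells, and it lay between -1.05 and -0.96 over the alternatives tried.

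HBEGF (ENSG00000113070, chromosome 5, from 140332843 to 140346603) encodes heparin-binding EGF-like growth factor, which binds EGFR and ERBB4. The libraries held 151, 178, 221 and 148 counts in 2D-primed and 57, 54, 110 and 53 counts in 3D-primed replicates, or 7.46 ± 1.18 and 2.65 ± 0.873 CPM (SD, n = 4). In 3D-primed cells replicate 3 stood apart at 3.94 CPM, against 2.10 to 2.39 CPM in the other 3, and yet it lay below the lowest 2D-primed library at 6.25 CPM. HBEGF had the largest change among the 8 genes tested, with a log2 fold change of -1.49 (SE 0.208, edgeR adjusted p = 1.2e-04), and without 3D-primed replicate 3 it was -1.76.

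AREG (ENSG00000109321, chromosome 4, from 74445136 to 74455005) encodes amphiregulin, an EGFR ligand whose gene is a known target of YAP. Its counts were 52, 51, 82 and 66 in 2D-primed and 23, 29, 34 and 31 in 3D-primed replicates, which is 2.68 ± 0.502 and 1.15 ± 0.191 CPM (SD, n = 4). The lowest 2D-primed library, at 2.20 CPM, was above the highest 3D-primed one, at 1.28 CPM. The log2 fold change was -1.22 (SE 0.198, edgeR adjusted p = 3.3e-04), or 2.33-fold more in 2D-primed cells.

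EREG (epiregulin, ENSG00000124882) and BTC (betacellulin, ENSG00000174808), which both bind EGFR and ERBB4, lie in the same part of chromosome 4 as AREG, EREG from 74365145 to 74388749 and BTC from 74744759 to 74794523, and neither reached the count minimum. EREG had 7, 6, 11 and 4 counts in 2D-primed and 1, 1, 1 and 2 counts in 3D-primed replicates. Summed over libraries this is 28 against 5 counts, and after scaling 2D-primed cells held 6.14 times as much (95% exact Clopper-Pearson interval 2.34 to 20.4, which covers counting error only). When genes of low count were kept, edgeR gave EREG a log2 fold change of -2.49 (adjusted p = 0.0023). BTC had 0 counts in every 2D-primed library and a single count in 3D-primed replicates 1 and 4, and a count of 0 allows up to 0.137 CPM in the shallowest library.

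**Figure D2:**
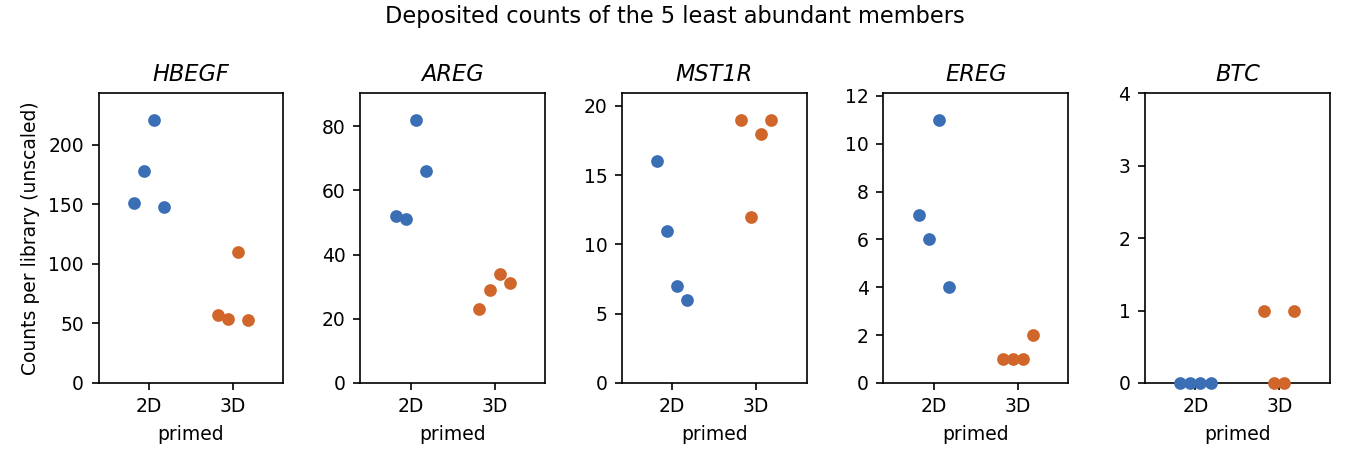
Deposited, unscaled counts per library (vertical axis, a different range in each panel) of the 5 least abundant genes in 2D-primed (blue) and 3D-primed (orange) cells. HBEGF, AREG and EREG separate the groups, with 3D-primed replicate 3 of HBEGF at 110 counts; MST1R overlaps and BTC does not exceed 1 count.

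Start regions of AREG, HBEGF, MET and EGFR, which fell, and of EREG, whose low counts lay the same way, are shown so that members that moved together can be compared. Those of TGFA and ERBB2, which also fell, are not printed. Their RefSeq starts lie inside the gene as GENCODE draws it, but so does the EGFR start in intron 1, which is printed over 250 bases. The printed windows are therefore a selection, and the matches in the TGFA and ERBB2 windows are given in the next paragraph. RefSeq promoter windows of GRCh38.p14, from 250 bases before to 50 bases after a start, were at hand for 9 of the 10 genes (11 windows, with a pair of starts each for EGFR and TGFA). In the lines below each sequence runs 5′ to 3′ along the gene and ends at the base before the start. Capitals mark matches to TATAAA, the core promoter sequence bound by TBP, looked for on the gene's strand 20 to 40 bases before the start, to the AP-1 motif TGANTCA and to the TEAD motif GGAATG, the latter pair searched on both strands. None of these matches overlap. Looking for TATAAA was added to the search after the windows had been read.
AREG, chr4:74445036-74445135, plus strand: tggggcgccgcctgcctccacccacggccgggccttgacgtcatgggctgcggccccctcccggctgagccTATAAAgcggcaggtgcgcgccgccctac
EREG, chr4:74365045-74365144, plus strand: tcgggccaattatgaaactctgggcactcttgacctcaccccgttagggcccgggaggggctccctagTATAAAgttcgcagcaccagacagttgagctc
HBEGF, chr5:140346604-140346703, minus strand: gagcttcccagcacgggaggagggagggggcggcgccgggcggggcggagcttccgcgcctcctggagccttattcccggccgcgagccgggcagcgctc
MET, chr7:116672096-116672195, plus strand: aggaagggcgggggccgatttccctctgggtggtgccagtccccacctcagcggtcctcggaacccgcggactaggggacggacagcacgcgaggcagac
EGFR, first start, chr7:55018917-55019016, plus strand: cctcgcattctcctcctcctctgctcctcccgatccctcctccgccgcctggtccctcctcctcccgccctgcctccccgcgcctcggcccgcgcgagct
EGFR, start in intron 1, chr7:55109589-55109838, plus strand: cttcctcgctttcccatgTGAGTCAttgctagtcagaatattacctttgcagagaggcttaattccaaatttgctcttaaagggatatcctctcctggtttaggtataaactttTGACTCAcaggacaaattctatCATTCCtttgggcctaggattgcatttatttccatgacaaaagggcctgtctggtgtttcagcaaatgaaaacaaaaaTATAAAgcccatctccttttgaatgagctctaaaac

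The neighbouring ligand genes AREG and EREG both held TATAAA, 29 and 32 bases before the start, which 2.30% of all 35116 promoter windows did in that position. HBEGF, MET, the first EGFR start and both TGFA starts had no match to any of these motifs in the window. They held 75%, 69.3%, 75.3%, 75.3% and 63% G and C in the 300 bases, where the median window had 58.7%. None of the motifs was found in every gene that fell. The EGFR start in intron 1, 90822 bases downstream of the first, held TGANTCA at 232 and 136 bases before it, the TEAD motif at 114 and TATAAA at 36. ERBB2 had TGANTCA at 222 bases and EREG the TEAD motif at 175 bases before the start. Of all windows, 7.71% held TGANTCA and 14.0% the TEAD motif. The counts are summed per gene, so which start was used was not measured.

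Set against each other, summed ligand RNA fell more than summed receptor RNA. Levels are given per kb of canonical transcript to allow for gene length. This takes 1 length per gene, and which transcripts were in use was not measured. The 5 receptors summed to 163 to 178 CPM per kb in 2D-primed and 138 to 153 CPM per kb in 3D-primed libraries, which is 1.20-fold more in 2D-primed cells. The 3 tested ligands summed to 24.8 to 27.5 and 11.3 to 13.4 CPM per kb, 2.11-fold more in 2D-primed cells. For every 100 units of receptor RNA there were therefore 15.2, 14.0, 15.5 and 14.6 units of ligand RNA in 2D-primed replicates 1 to 4 and 8.83, 7.96, 8.77 and 8.17 units in 3D-primed replicates 1 to 4. These sums are a description and were not tested, since the genes in them were chosen together. The difference was larger without ERBB3 and TGFA, the most abundant of each kind, at 1.90-fold against 1.76-fold with them. ERBB3, which binds neuregulins and did not pass the test, is the largest part of the receptor sum. Relative to EGFR alone, the receptor for these ligands, mean levels of TGFA were 1.29-fold, HBEGF 1.83-fold and AREG 1.48-fold higher in 2D-primed cells. For AREG the groups overlapped, at 0.1288 to 0.1897 in 2D-primed and 0.0887 to 0.1291 in 3D-primed libraries.

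Within the EGFR family the proportions also shifted. EGFR made up 7.94 to 9.63% of the summed EGFR, ERBB2 and ERBB3 RNA per kb in 2D-primed and 6.30 to 7.10% in 3D-primed libraries, without overlap. ERBB3 went from 57.0 ± 0.480% to 61.7 ± 1.13% (SD, n = 4). The ratio of TGFA to EGFR per kb went from 1.56 ± 0.158 to 1.21 ± 0.100 (SD, n = 4), without overlap of the groups. These ratios are taken within a library and do not depend on the scaling between libraries.

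**Figure D3:**
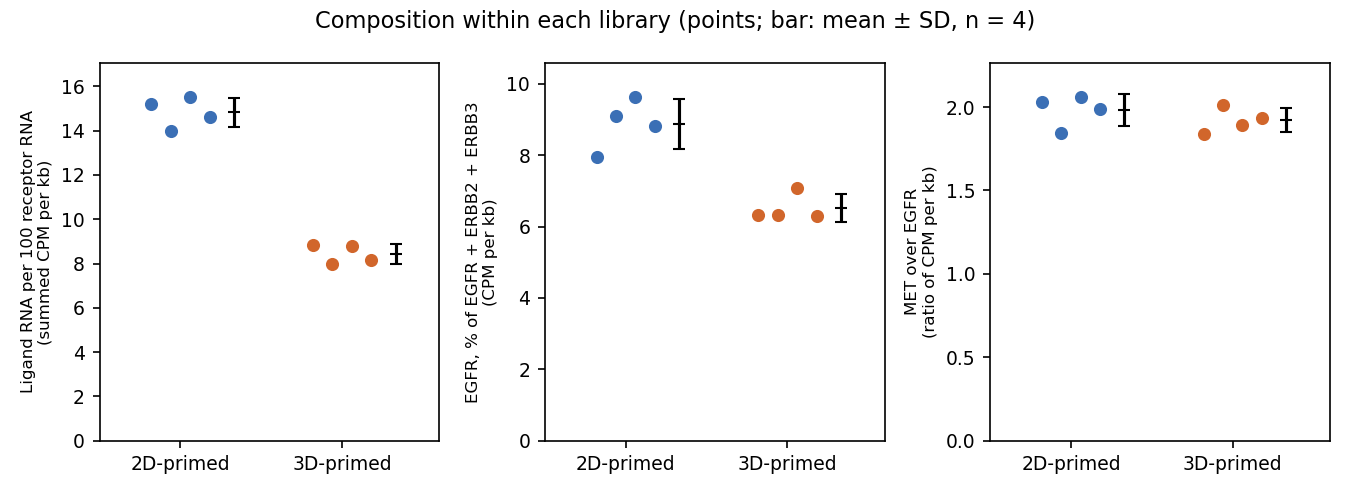
Ligand RNA per 100 units of receptor RNA, the share of EGFR in the summed EGFR, ERBB2 and ERBB3 RNA, and the ratio of MET to EGFR, all from CPM per kb, for each library (points) with mean ± SD of 4. The first and second panels separate 2D-primed (blue) from 3D-primed (orange) libraries, while MET over EGFR lies between 1.84 and 2.06 in both.

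By level per kb, the order was the same in both groups, with ERBB3 first, followed by ERBB2, MET, TGFA, EGFR, HBEGF, AREG, MST1R, EREG and BTC. It rests on the canonical lengths. By CPM, EGFR lay above TGFA, at 129 against 83.3 CPM in 2D-primed and 82.4 against 41.4 CPM in 3D-primed cells. ERBB3 had 83.5 ± 2.48 CPM per kb in 2D-primed and 78.7 ± 4.46 CPM per kb in 3D-primed cells (SD, n = 4), which over all 8 libraries lay above 94.7% of the tested genes with a known length. EGFR, at 13.0 ± 1.39 and 8.32 ± 0.833 CPM per kb, lay above 63.6%, and MST1R above 2.84%. Neighbours in this order whose libraries overlapped were HBEGF and AREG in both groups, MST1R and EREG in 2D-primed cells, and TGFA and EGFR as well as EREG and BTC in 3D-primed cells.

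**Figure D4:**
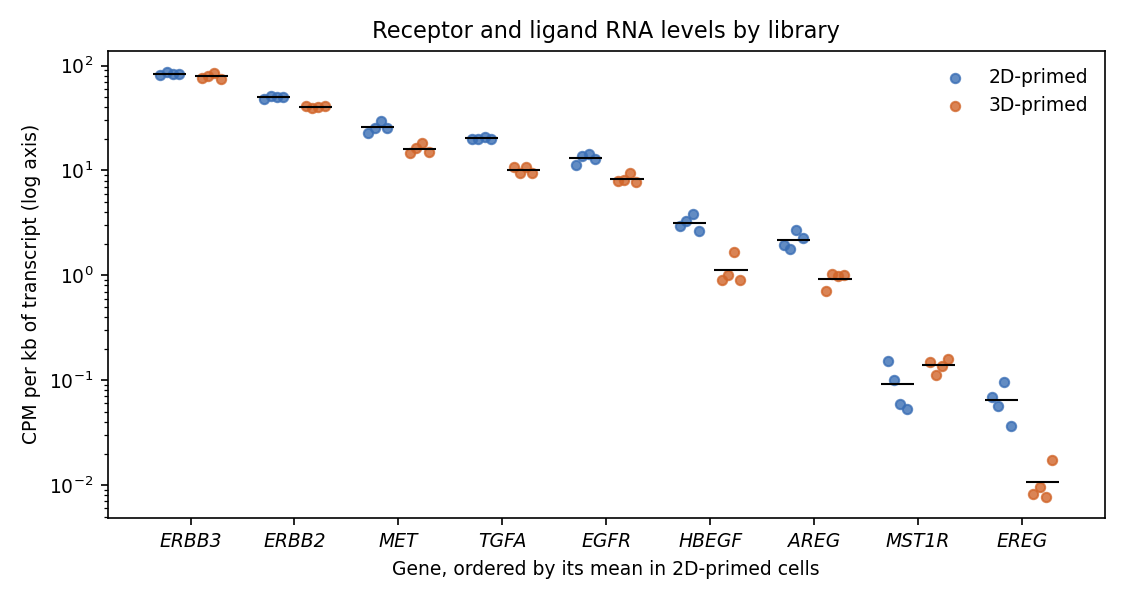
CPM per kb of canonical transcript (log axis) of each gene in the 4 2D-primed (blue) and 4 3D-primed (orange) libraries, with a bar at the mean; BTC, at 0 in most libraries, is left out. From ERBB3 at about 80 to EREG below 0.1 CPM per kb the levels span several orders of magnitude, and TGFA, HBEGF, AREG and EREG drop furthest.

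The order of libraries within groups differed among the genes. In 3D-primed cells replicate 3 was the highest library for 5 of the 8 tested genes (EGFR, ERBB3, MET, TGFA and HBEGF), and replicate 4 the lowest for 4 (EGFR, ERBB3, TGFA and HBEGF), while ERBB2, AREG and MST1R were highest in replicates 1, 2 and 4. Of all genes tested, 28.4% were highest in that replicate 3 and 23.3% lowest in replicate 4. In 2D-primed cells replicate 3 was the highest for 5 (EGFR, MET, AREG, TGFA and HBEGF), and replicate 1 the lowest for 4, all of them receptors, beside 28.8% and 31.0% of all genes tested. Leaving out 3D-primed replicate 3 gave log2 fold changes of -0.73 for EGFR and -0.76 for MET.

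Most other ligands of these receptors were hardly counted. Of 9 further ligand and receptor genes, only MST1 was tested. HGF, the MET ligand that liver tissue makes in its stromal cells, had 1 count in a single 3D-primed library and 0 in the others. NRG1, a neuregulin that binds ERBB3, had 0 to 4 counts in 2D-primed and 4 to 7 counts in 3D-primed libraries, and ERBB4, EGF, EPGN, NRG2, NRG3 and NRG4 had at most 3. MST1, which encodes the MST1R ligand and is made by hepatocytes, rose from 118 ± 8.46 to 151 ± 17.9 CPM (SD, n = 4; log2 fold change 0.35, SE 0.0822, edgeR adjusted p = 0.0034). Near-identical copies, MST1L and MST1P2, were counted as separate genes, so the division of reads among them is uncertain. These genes other than MST1 are singled out after their counts were seen, as are those so marked below.

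Of the genes for ligand release and for the activation of HGF and macrophage-stimulating protein, 14 of 16 were tested, 8 fell and 2 rose (of all genes, 31.6% and 32.4%), with a median log2 fold change of -0.65. SPINT1, which encodes the HGF activator inhibitor HAI-1, went from 21.1 ± 2.56 to 2.94 ± 0.607 CPM (SD, n = 4), a log2 fold change of -2.83 (SE 0.138, edgeR adjusted p = 1.0e-07). RHBDF2, which encodes the rhomboid protein that carries ADAM17 to the cell surface, fell from 55.5 ± 2.29 to 19.9 ± 1.86 CPM (-1.48 on the log2 scale, edgeR adjusted p = 5.8e-08). TIMP3, an inhibitor of ADAM17 and other metalloproteinases, fell from 525 ± 11.5 to 242 ± 18.6 CPM (-1.12 on the log2 scale, edgeR adjusted p = 1.0e-07). ADAM17 itself, the protease that releases TGFA, AREG and HBEGF, did not pass the test, at 47.7 ± 1.41 and 46.0 ± 2.49 CPM (edgeR adjusted p = 0.35). ADAM10, which releases betacellulin and EGF, fell (-0.51, edgeR adjusted p = 2.6e-06), whereas the rhomboid protease gene RHBDL2 rose from 2.85 ± 0.456 to 8.37 ± 1.69 CPM (1.55 on the log2 scale, edgeR adjusted p = 2.1e-05). ADAM17, ADAM10 and RHBDL2 were chosen after their values were seen.

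The 13 adaptors and enzymes that bind activated receptors went both ways, with 6 lower and 4 higher (of all genes, 31.6% and 32.4%) and a median log2 fold change of -0.03. The smallest p-values belonged to EPS8, a receptor substrate that links to actin (-0.62, edgeR adjusted p = 2.7e-06), GAB2, a docking protein (-1.10, adjusted p = 4.0e-06), and CRKL, an adaptor (-0.45, adjusted p = 1.1e-05). In the RAS-ERK cascade 9 of 15 genes fell (31.6% of all genes) and 6 did not pass the test, with a median log2 fold change of -0.30. MAP2K1, which encodes the kinase MEK1, fell from 102 ± 7.34 to 55.5 ± 3.89 CPM (SD, n = 4; log2 fold change -0.88, edgeR adjusted p = 1.2e-06). ARAF, a RAF kinase gene, fell by 0.74 and RPS6KA1, which encodes an ERK-activated kinase, by 0.64 on the log2 scale, with adjusted p of 2.9e-07 and 5.5e-07 in edgeR.

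In the PI3K-AKT and STAT list 5 of 11 genes fell and 4 rose, where 31.6% and 32.4% of all genes did. The 3 with the smallest p all rose and all encode regulatory subunits of PI3-kinase. PIK3R2 went from 94.3 ± 4.64 to 143 ± 3.56 CPM and PIK3R1 from 32.8 ± 1.16 to 42.2 ± 1.33 CPM (SD, n = 4), with log2 fold changes of 0.60 and 0.37 and adjusted p of 1.1e-06 and 2.6e-05 in edgeR. PIK3R3 was scarce, at 1.17 ± 0.267 and 4.57 ± 0.785 CPM, and rose by 1.96 on the log2 scale (SE 0.202, edgeR adjusted p = 1.3e-05). The catalytic subunit genes PIK3CA and PIK3CB, chosen after their values were seen, fell by 0.35 and 0.41 on the log2 scale, with adjusted p of 0.0027 and 0.0032 in edgeR.

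Of the 20 genes that restrain the receptors or remove them from the cell surface, 11 fell and 5 rose (of all genes, 31.6% and 32.4%), with a median log2 fold change of -0.36. LRIG1, a transmembrane protein that binds EGFR family receptors and MET and speeds their degradation, rose from 30.7 ± 1.53 to 61.2 ± 4.22 CPM (SD, n = 4; log2 fold change 1.00, SE 0.0573, edgeR adjusted p = 2.7e-07). Among the endocytic sorting genes, EPN1 fell by 0.99 and HGS by 0.75 on the log2 scale, with adjusted p of 1.8e-07 and 7.0e-07 in edgeR. ERRFI1, the feedback inhibitor of EGFR also called MIG6, was chosen after its values were seen. It fell from 1100.1 ± 101 to 483 ± 92.9 CPM (SD, n = 4), a log2 fold change of -1.19 (SE 0.122, edgeR adjusted p = 1.3e-05).

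Genes that ERK signalling induces went both ways. Of 18 tested, 10 fell, 3 rose and 5 did not pass the test (of all genes, 31.6% fell and 32.4% rose), at a median log2 fold change of -0.19. CCND1 (cyclin D1) fell from 370.3 ± 19.3 to 174 ± 8.28 CPM, EPHA2 (an ephrin receptor) from 292 ± 20.4 to 128 ± 8.30 CPM and PHLDA1 from 191 ± 18.4 to 77.0 ± 7.27 CPM (SD, n = 4), with log2 fold changes of -1.09, -1.19 and -1.31 and adjusted p of 7.7e-08, 1.6e-07 and 5.5e-07 in edgeR. DUSP5, which encodes an ERK phosphatase, fell from 19.1 ± 3.55 to 3.67 ± 1.42 CPM (-2.37 on the log2 scale, edgeR adjusted p = 1.1e-05), whereas MYC did not pass it (0.02 on the log2 scale, adjusted p = 0.74). EGR1, an immediate early transcription factor gene, rose from 48.5 ± 15.4 to 153 ± 50.05 CPM (log2 fold change 1.66, SE 0.247, edgeR adjusted p = 1.8e-04). DUSP4 and FOSL1 fell by 1.09 and 1.25 on the log2 scale. Changes were smaller elsewhere in the list. SPRY1, SPRY2, SPRED1 and ETV4 fell by 0.13, 0.23, 0.24 and 0.14, with overlapping groups. DUSP6 and SPRED2 rose by 0.15 and 0.13, while SPRY4 and ETV5 did not pass the test. All genes named here other than CCND1, EPHA2 and PHLDA1 were chosen after their values were seen. IER3 was listed at 0 in all 8 libraries under its GENCODE identifier, and identifiers without a GENCODE match were not searched for it.

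**Figure D5:**
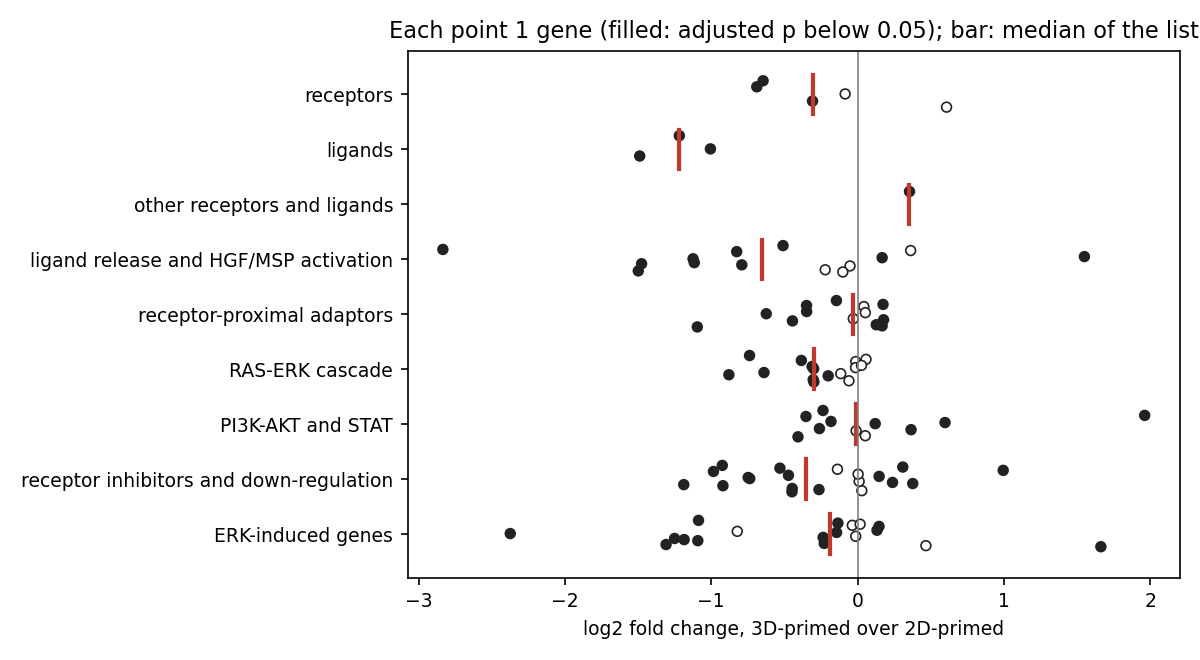
Log2 fold change, 3D-primed over 2D-primed (horizontal axis), of each tested receptor, ligand and pathway gene; filled points passed an adjusted p of 0.05 and red bars are medians. Ligands lie furthest to the left with a median of -1.22, while adaptors and the PI3K-AKT list are centred near 0.

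Over all 7 pathway lists 92 genes were tested, of which 49 (in a background of 31.6%) were lower and 19 (in a background of 32.4%) higher in 3D-primed cells. The profiles most like those of the most abundant receptor and ligand were sought among 10021 genes of at least 5 CPM, by the root mean square difference of log2 CPM over the 8 libraries after centring each gene on its mean. Nearest to ERBB3 were EML3, HOOK1 and WDR5, at 0.0285, 0.0305 and 0.0317 log2 units, where the median gene was at 0.186. Nearest to TGFA were RBM47, TEAD1 and ERGIC1, at 0.0485, 0.0522 and 0.0523 log2 units, where the median gene was at 0.523. These 3 had log2 fold changes of -1.08, -0.997 and -0.94 (edgeR adjusted p = 1.7e-07, 1.2e-07 and 1.5e-07), near that of TGFA, and the measure includes this difference between the groups. TEAD1, which encodes a DNA-binding partner of YAP and TAZ, went from 99.4 to 49.8 CPM. Shared control of these genes was not tested.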

How the data were processed

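Polyadenylated RNA of 4 2D-primed and 4 3D-primed HepG2 cultures was sequenced in read pairs from directional libraries. The authors deposited estimated counts per gene, made with Salmon on Ensembl cDNA of GRCh38 and summed with tximport. The values are whole numbers and not scaled to depth, and whether they carry a transcript length correction is not given in the sources used here. Groups were taken from the labels. Symbols, positions and canonical transcript lengths came from GENCODE annotation of GRCh38 by identifier without version (78.0% matched, carrying 97.4% of counts).

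A minimum of 10 counts in 2 libraries was set, and the genes that met it were scaled by TMM and tested with glmQLFit and glmQLFTest of edgeR 4.0.16 in R 4.3.3, with Benjamini-Hochberg adjustment over all genes at 0.05. The standard error is the log2 fold change divided by the square root of F. Alternatives were DESeq2 1.42.0, limma-voom (limma 3.58.1), other scalings and filters, each library left out, and the replicate number as a block. The pipeline was also run on simulated data in which a small part of the genes changed, up and down alike. In the real data 63.9% of the genes tested were called, a setting that this run did not cover. Library pairs within a group differed beyond counting noise (chi-square over its degrees of freedom, 6.07 to 16.4), so each counted as 1 replicate. Figures were drawn with matplotlib 3.10.9.

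The genes, lists and tests were chosen with earlier results of these data known. Named are all 10 receptor and ligand genes, the 3 tested genes of each pathway list with the smallest p, and the 3 nearest profiles, and other genes are marked as chosen after their values were seen.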

Additional observations from a re-analysis of the deposited data

Results flagged for a closer look

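In each group of 4 libraries, the highest or lowest was looked at again when its gap to the next was too large a part of the group's range by Dixon's 95% criterion, which chance alone gives in about 1 of 20 groups. Of 60 groups examined, 6 met it, all 3D-primed. Replicate 3 was the highest in 4 of them, with HBEGF at 3.94 CPM (others 2.10 to 2.39), MST1 at 177 CPM (others 140 to 143), CRKL at 112 CPM (others 105 to 106) and EGFR at 7.10% of the EGFR family RNA per kb (others 6.30 to 6.34%). Without that replicate the log2 fold changes were -1.76 for HBEGF, 0.26 for MST1 and -0.47 for CRKL, and all stayed past the threshold in edgeR. ERBB2 was low in replicate 2, at 180.2 CPM (others 185 to 186), and AREG in replicate 1, at 0.868 CPM (others 1.22 to 1.28), without which AREG had a log2 fold change of -1.11.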

How the results depend on the processing

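EGFR, ERBB2, MET, TGFA, HBEGF and AREG stayed lower in 3D-primed cells and past the threshold in all 17 alternatives, with HBEGF the most variable (log2 fold change -1.76 to -1.39). The number of receptor and ligand genes called was 6 to 7 over the alternatives, beside 6, with ERBB3 added without 3D-primed replicate 3, MST1R without 2D-primed replicate 1 and EREG without a filter on low counts. The number higher in 3D-primed cells, 0 as reported, was 0 to 1 with each library left out, through MST1R. The log2 change of the ligand to receptor ratio, -0.76 on CPM, was -0.92 without ERBB3 and TGFA and -0.79 to -0.72 with each library left out. Of the pathway genes, 62 to 69 were called, beside 68, and of all genes 8357 to 9070, beside 8916. Over all genes, same-numbered libraries of the groups did not deviate together (correlations of -0.043 to 0.057), which does not settle pairing for single genes. EGFR, MET, TGFA and HBEGF were highest in replicate 3 of both groups. With the replicate block the SE of MET was 0.0409 and of EGFR 0.0563, beside 0.0862 and 0.0873 without it. That of ERBB2 was 0.0413 beside 0.0350. In the blocked fit 6 receptor and ligand genes, 63 pathway genes and 8490 of all genes were called. No scaling moved the median gene by more than 0.06 on the log2 scale. Depth limits EREG, BTC and MST1R, which had at most 19 counts in a library.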
